A study of Mus musculus with 18 samples.

Results

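The mitochondrial genome transcripts are the chimeric reads whose target portion was placed on chrM of the mouse genome, build GRCm38 (mm10). There were 7000 such reads among the 1190995 chimeric reads of 12 libraries, and they were assigned by position to the 37 mitochondrial genes of the RefSeq annotation. The study used miR-eCLIP, in which RNA bound to Argonaute is crosslinked with 254 nm light, pulled down and ligated, so that a miRNA and the RNA beside it are read together as 1 chimeric read. The cells were total thymocytes of mice aged 6 weeks. The design had 4 groups of 3 libraries. Wild type was C57BL/6, and the knockout was the strain B6.Mirc14tm1.1Ankr, which lacks the locus of miR-181a-1 and miR-181b-1 but keeps the other miR-181 genes. In each genotype 1 set of libraries came from the pull-down with an antibody to Ago2 (Ago2 IP), and the other was in addition enriched for chimeras of miR-181-5p (miR-181 enriched). A further 6 input samples were not analysed here. The labels do not say whether the libraries of a group came from separate mice, so all p-values measure the spread between these libraries, which may be technical. A chimeric read records a contact of Argonaute with an RNA in the lysate and is not a level of expression; fewer contacts per molecule, less RNA per cell and fewer cells of a kind cannot be told apart.

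The mitochondrial genome is a small circle inside the organelle that encodes 2 ribosomal RNAs (mt-Rnr1 and mt-Rnr2), 13 proteins of the respiratory chain and ATP synthase, and 22 tRNAs. Both strands are transcribed as long precursors, and the tRNAs that lie between the other genes are cut out to release the mature RNAs. Nearly all mitochondrial mRNAs are encoded on the same strand, and only ND6 and some tRNAs are read from the other. Argonaute proteins and miRNAs are encoded in the nucleus and act mainly in the cytoplasm, where a miRNA recognises RNA mostly through its seed, the bases 2 to 8.

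The miRNAs on which the mitochondrial results turn are shown with the seed in capitals, because members that share a seed were grouped for the gene-by-gene description. The sequences are those of RefSeq for GRCm38.p6, written 5′ to 3′; of the 96 miRNA names that held a chrM read, 69 were found in that table. The first 5 sequences were over-represented on chrM reads relative to nuclear reads, and the last 5 under-represented.
miR-142a-3p: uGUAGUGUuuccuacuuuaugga
let-7a-5p: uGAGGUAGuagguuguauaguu
let-7d-5p: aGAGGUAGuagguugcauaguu
miR-155-5p: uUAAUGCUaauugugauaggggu
miR-21a-5p: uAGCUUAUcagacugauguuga
miR-17-5p: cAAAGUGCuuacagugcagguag
miR-20a-5p: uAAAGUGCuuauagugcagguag
miR-16-5p: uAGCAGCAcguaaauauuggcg
miR-181a-5p: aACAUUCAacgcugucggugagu
miR-181b-5p: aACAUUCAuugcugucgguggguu

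Libraries differed widely in depth. The Ago2 IP libraries held 43983 to 117849 chimeric reads, the wild-type enriched libraries 194628 to 293149 and the knockout enriched libraries 6832 to 19264, so values of the last group are the least precise. On nuclear reads miR-181-5p (its a, b, c and d members together) accounted for 30.4% to 32.5% of Ago2 IP reads in wild type but for 1.33% to 1.46% in the knockout, which checks the genotype labels. All 13 thymocyte markers, such as Themis, Rag1 and Cd4, held Ago2 IP reads (5499 in all, or 11961 to 14663 RPM, reads per 1000000 chimeric reads of a library). Markers of B cells, myeloid cells and erythroid cells held 9, 10 and 19 reads, and the 5 markers of thymic epithelium (Foxn1, Krt5, Krt8, Psmb11 and Epcam) held 0. In counts over genes, knockout enriched libraries 2 and 3 did not differ beyond counting noise (chi-square p = 0.23 over 149 features), whereas the other pairs within groups did. Their depths were 19264 and 6832 reads, at which a difference may not be detectable, so they were kept as 2 samples. With both as 1 sample (chosen after seeing the data), the 5 and 1 calls of mitochondrial genes in the 2 comparisons that use them kept their number.

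About 1 in 100 chimeric reads of the Ago2 IP fell on chrM. The wild-type libraries had 1088, 666 and 374 chrM reads, which were 0.923%, 0.964% and 0.850% of their chimeric reads. The knockout libraries had 669, 864 and 649, or 1.101%, 1.28% and 1.25%. All 3 knockout libraries lay above all wild-type ones, with means of 1.21% ± 0.0943 and 0.913% ± 0.0577 (SD, n = 3), a difference of 0.295 percentage points and an exact permutation p of 0.1, two-sided, which is the smallest p that 3 against 3 libraries allow. The Wilson 95% interval of a single Ago2 IP library, for counting error only, was at widest 1.15% to 1.34%.

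Among chimeras of miRNAs outside the miR-181-5p family, the same comparison gave no such order. There chrM held 1.24%, 1.26% and 1.17% of wild-type reads, while the knockout values were 1.114%, 1.29% and 1.26%. The means were 1.22% ± 0.0487 and 1.22% ± 0.0950 (SD, n = 3), with an exact permutation p of 1. The miR-181-5p chimeras, which the knockout mostly loses, had few chrM reads in wild type, 0.224% ± 0.0658 of their number (SD, n = 3).

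**Figure D1:**
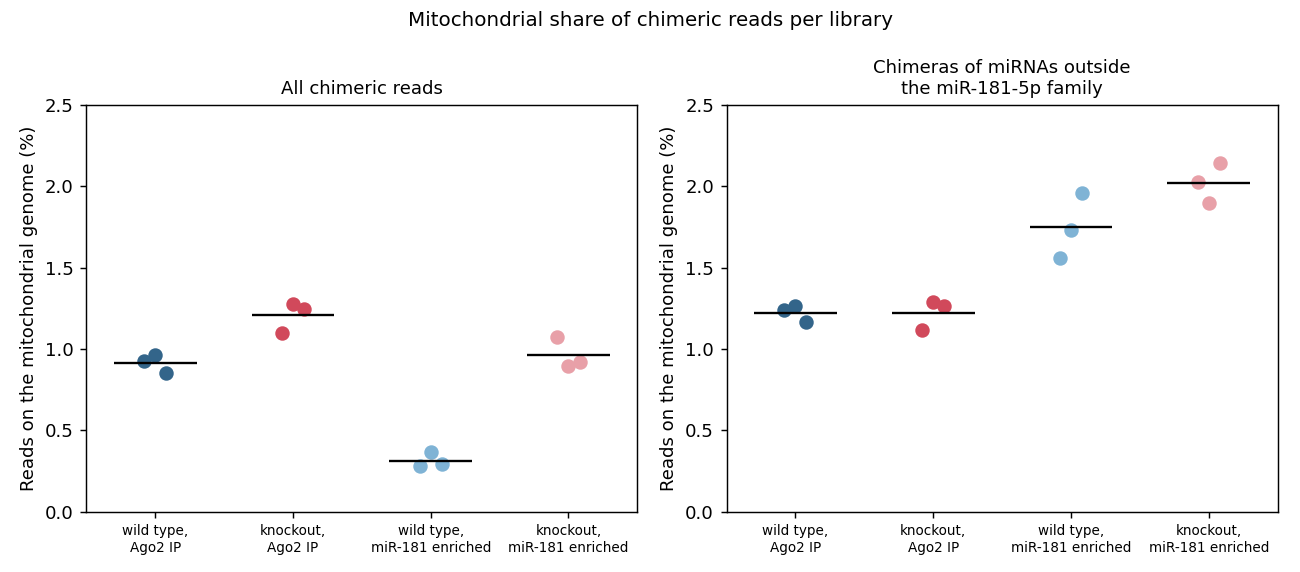
Percent of chimeric reads on the mitochondrial genome in each library (points) with the group mean (line), for all chimeras on the left and for chimeras of miRNAs outside the miR-181-5p family on the right. On the left the wild-type enriched libraries (0.282% to 0.364%) lie far below the rest; on the right the wild-type and knockout Ago2 IP libraries overlap and the enriched libraries lie higher.

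In the enriched libraries the chrM share was 3.08 times as high in the knockout as in wild type. Wild-type enriched libraries had 826, 923 and 574 chrM reads, or 0.282%, 0.364% and 0.295%. Knockout enriched libraries had 131, 173 and 63, or 1.08%, 0.898% and 0.922%. Among non-miR-181 chimeras the share was 1.15 times as high (exact permutation p = 0.2). For all chimeras the groups did not overlap (0.314% ± 0.0442 against 0.965% ± 0.0960, SD, n = 3; exact permutation p = 0.1). Relative to the Ago2 IP of the same genotype the chrM share was 0.344 times as high in wild type and 0.799 times as high in the knockout, each with an exact permutation p of 0.1. All 4 p-values remained 0.1 after Benjamini-Hochberg adjustment over the 4 contrasts. Both directions turned among non-miR-181 chimeras, of which chrM held 1.75% ± 0.201 after enrichment in wild type and 2.02% ± 0.123 after enrichment in the knockout (SD, n = 3; exact permutation p = 0.1 against the Ago2 IP in each genotype). The knockout difference also turned, to 1.02 times, when reads of the same position, strand and miRNA were counted once per library (exact permutation p = 0.8).

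Chimeric reads covered the mitochondrial genes very unevenly. Of the 37 genes, 28 held at least 1 read and 9 held at least 100. In the Ago2 IP, reads on the coding strand of mRNA genes made up 53.2% of the 4310 chrM reads, those on the rRNAs 35.9% and those on tRNAs 5.94%. The 8 genes with most reads held 89.1%.

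The small ribosomal RNA, mt-Rnr1 (gene ID 17724, chrM 70 to 1024, plus strand), which forms the core of the small mitochondrial ribosome subunit, was the most frequent target. Its Ago2 IP reads numbered 270, 155 and 96 for wild type and 166, 182 and 137 for the knockout. The level was 2239 ± 54.4 RPM in wild type and 2684 ± 51.0 in the knockout (SD, n = 3). Of all mitochondrial genes other than tRNAs it was the highest per length, at 2345 ± 56.9 RPM per kb in the wild-type Ago2 IP.

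The large ribosomal RNA, mt-Rnr2 (17725, chrM 1094 to 2675), which carries the peptidyl transferase centre, had fewer reads. There were 132, 104 and 37 Ago2 IP reads for wild type and 83, 115 and 74 for the knockout. Per length this was 730.5 ± 211 RPM per kb in wild type (SD, n = 3), below mt-Rnr1 beyond the spread of the libraries.

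Among the mRNAs, those of complex I subunits ND4 and ND1 were the most frequent per length. ND4 (17719, chrM 10167 to 11544) encodes a proton-pumping subunit of complex I, the first enzyme of the respiratory chain, and had 184, 89 and 54 wild-type and 119, 141 and 101 knockout Ago2 IP reads. ND1 (17716, chrM 2751 to 3707), a complex I subunit near the quinone site, had 126, 58 and 40, and 73, 99 and 72. In RPM per kb of the wild-type Ago2 IP, ND4 stood at 986 ± 129 and ND1 at 982 ± 123 (SD, n = 3), which do not differ beyond their spread.

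The other mRNAs followed at lower levels per length. COX1 (17708, chrM 5328 to 6872), the catalytic subunit of cytochrome c oxidase, had 90, 52 and 33 wild-type and 69, 110 and 58 knockout Ago2 IP reads. ND5 (17721, chrM 11742 to 13565), another proton-pumping complex I subunit, had 80, 51 and 28, and 50, 63 and 68. CYTB (17711, chrM 14145 to 15288), the cytochrome b of complex III, had 68, 57 and 13, and 39, 46 and 50. In the wild-type Ago2 IP the order per length was CYTB at 495 ± 232, COX1 at 489 ± 4.61, ND5 at 375 ± 28.0 and ND2, a further complex I subunit, at 235.0 ± 41.2 RPM per kb (SD, n = 3). CYTB varied too much between libraries to be placed relative to COX1 or ND5.

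**Figure D2:**
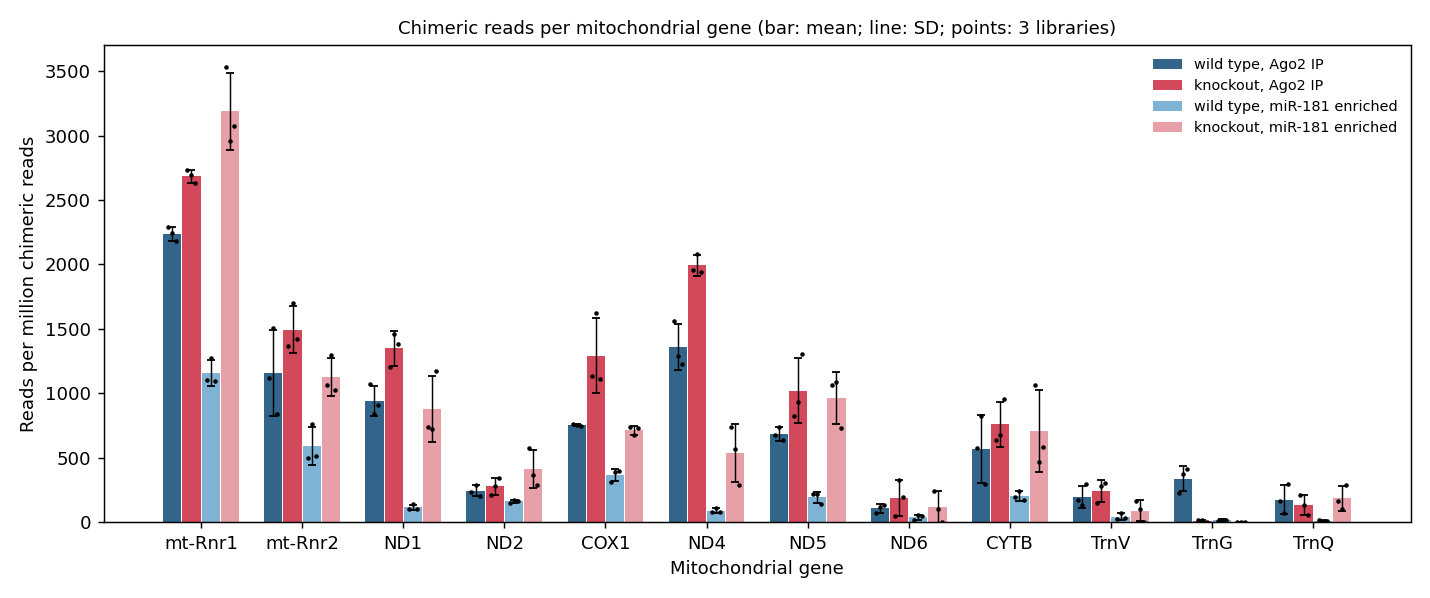
Chimeric reads in RPM at 12 mitochondrial genes in the 4 groups (bars, mean; lines, SD; points, the 3 libraries). The plot is for comparing groups within a gene and not genes with each other, since it is not scaled by length; TrnG reads are near 0 in the knockout, and at ND4 and ND1 the wild-type enriched libraries lie below the wild-type Ago2 IP.

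A long stretch of the genome held almost no reads. Between the last COX1 read at position 6391 and the first ND4 read at 10931 lie 4539 nt with 88 reads in all 12 libraries, 1.94 per 100 nt against 63.2 per 100 nt in the rest of the annotated genome. Of the 11 genes wholly inside it, 7 held 0 reads, among them COX2, a further catalytic subunit of cytochrome c oxidase, ATP6 of the ATP synthase and ND4L of complex I. ATP8, COX3 and ND3 held 1 read each, and the other 85 reads lay at the end of TrnG. A count of 0 among 7000 chrM reads allows a share of up to 0.0429%. A nuclear copy of this stretch on chromosome 1 is described with TrnG, and its part in the scarcity of reads was not tested.

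Most tRNA reads sat at gene ends. TrnV (17745, chrM 1025 to 1093), which lies between both rRNAs, had 123 reads in all, with the most frequent position at 1091, 2 nt before its end. TrnG (17731, chrM 9391 to 9458) had 85 reads, of which 63 lay within 1 nt of position 9456, again 2 nt before the end. The files give 1 position per read and not its length, and which end of the read this is on each strand is not given in the sources used here. A read counted for a tRNA by its position may therefore lie mostly in the next gene, here mt-Rnr2 and ND3.

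Reads came almost only from 1 strand. The plus strand, which encodes all genes described so far, held 6946 chrM reads and the minus strand 54, or 0.771%. For comparison, in the 3808 nuclear protein-coding genes that held 50 reads or more, the minor strand had 0.968% of the reads. In the Ago2 IP the minus-strand share was 0.334% ± 0.294 for wild type and 0.587% ± 0.516 for the knockout (SD, n = 3; exact permutation p = 0.6), and the direction of that difference turned without knockout library 2 (-0.0327 percentage points, knockout minus wild type).

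The genes encoded on the minus strand therefore held mostly reads of the opposite strand. ND6 (17722, chrM 13552 to 14070), the only mRNA of that strand, had 15 reads on its coding strand and 75 on the other. TrnQ (17740, chrM 3772 to 3842) had 0 and 76, and TrnY had 0 and 53. These plus-strand reads lie opposite the minus-strand genes, on the strand that encodes the neighbouring mRNAs.

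The miRNAs joined to mitochondrial RNA differed from those joined to nuclear RNA. In an edgeR quasi-likelihood fit over the 6 Ago2 IP libraries, with each library as a block and p-values adjusted by Benjamini-Hochberg, 11 of 72 miRNAs made up a larger share of chrM than of nuclear reads (15.3% of those tested) and 33 a smaller one (45.8%), 44 or 61.1% in all. The median log2 difference over the 72 was -1.27. A miRNA could pass the count filter through the nuclear columns alone, which hold far more reads. The median and the 33 therefore include miRNAs that were kept by their nuclear reads. Of the 33, 8 had no chrM read, and with these at the bound that 3 reads over the 6 libraries give, the median moved from -1.50 to -1.08 when columns were scaled by their sums. Scaling by column sums alone likewise moved the median of the fit from -1.27 to -1.50, and the differences that follow are on the scale of the fit.

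miR-142a-3p, a miRNA of blood cells, was the most frequent in both compartments. It was joined to 540, 321 and 189 chrM reads of the wild-type Ago2 IP and to 371, 494 and 375 of the knockout. Its mean share over the 6 libraries was 53.1% ± 4.16 of chrM reads against 33.4% ± 6.60 of nuclear reads (SD, n = 6), higher on chrM in 6 of 6 libraries. The log2 difference was 0.90 ± 0.087 (SE; edgeR adjusted p = 1.3e-14). With repeats counted once it was 0.17 and no longer passed (edgeR adjusted p = 0.10).

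miR-155-5p, which is induced in activated lymphocytes, showed the largest shift among the 11 miRNAs called higher on chrM. Its chrM reads numbered 46, 30 and 9 for wild type and 21, 27 and 23 for the knockout. They made up 3.49% ± 0.776 of chrM reads and 0.546% ± 0.0757 of nuclear reads (SD, n = 6), a log2 difference of 2.93 ± 0.18 (SE; edgeR adjusted p = 1.8e-23), in 6 of 6 libraries. miR-21a-5p, a widely expressed miRNA, followed with 1.83% ± 0.998 against 0.336% ± 0.0627 and a log2 difference of 2.57 ± 0.27 (SE; edgeR adjusted p = 1.5e-13).

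The let-7 family, which shares the seed shown for let-7a-5p, was higher as a group. Of its 8 members tested, 6 were called higher on chrM, against 15.3% of all 72 miRNAs tested. let-7a-5p made up 8.39% ± 1.17 of chrM and 3.38% ± 0.544 of nuclear reads (SD, n = 6; log2 1.52 ± 0.12, SE; edgeR adjusted p = 9.9e-19). let-7c-5p (log2 1.35), let-7b-5p (1.23), let-7f-5p (1.12) and let-7d-5p (0.96) passed as well. let-7g-5p passed narrowly at 0.43 (edgeR adjusted p = 0.045), and its direction turned with repeats counted once (-0.03) and without the count filter (-0.06). let-7i-5p at 0.31 and miR-98-5p at 1.06 did not pass. The star strand let-7d-3p (1.84) and miR-1198-5p (1.56) were also called, with 10 and 9 chrM reads.

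The seed families of miR-17 and miR-16, which are known for roles in lymphocyte proliferation and cell cycle control, were lower. All 5 members tested of the miR-17 seed and all 3 of the miR-16 seed were called lower on chrM. Of all 72 miRNAs tested 45.8% were called lower, and their median was -1.27, so a lower value was common. miR-16-5p had 1.17% ± 0.2499 of chrM and 4.84% ± 0.850 of nuclear reads (log2 -1.82 ± 0.18, SE, edgeR adjusted p = 5.4e-14). For miR-20a-5p the shares were 0.917% ± 0.452 and 3.75% ± 0.643. For miR-26a-5p, which is in neither of these seed families, they were 0.175% ± 0.221 and 1.47% ± 0.339 (SD, n = 6, for the shares of all 3). Each was lower on chrM in 6 of 6 libraries.

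**Figure D3:**
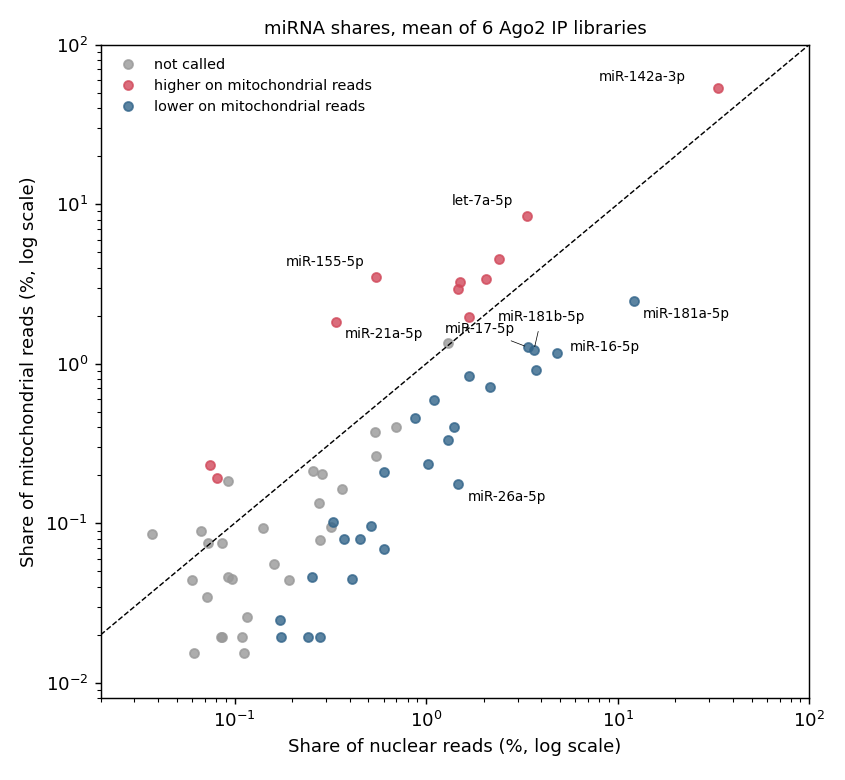
Share of each miRNA among nuclear reads (x axis) and mitochondrial reads (y axis), both in percent on log scales, as the mean of the 6 Ago2 IP libraries; the dashed line marks equal shares, and 8 tested miRNAs without a chrM read are not drawn. miR-155-5p, miR-21a-5p, miR-142a-3p and the let-7 members lie above the line, and miR-181a-5p, miR-16-5p and miR-26a-5p below it.

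The miR-181-5p family was among those lower on chrM. In the wild-type Ago2 IP it was joined to 6.16%, 9.61% and 6.95% of chrM reads, against 30.4%, 31.1% and 32.5% of nuclear reads. miR-181a-5p had a log2 difference of -2.15 ± 0.16 and miR-181b-5p of -1.56 ± 0.22 (SE; edgeR adjusted p = 2e-19 and 4.8e-09). miR-181c-5p at -1.38 and miR-181d-5p at -0.77 did not pass (edgeR adjusted p = 0.062 and 0.25), with 4 and 6 chrM reads. Over the 6 wild-type libraries of both kinds the family share was lower on chrM in 6 of 6, with a mean difference of -14.2 percentage points (exact sign-flip p = 0.031, two-sided, the smallest that 6 pairs allow). This mean joins unlike kinds of library and describes neither, since nearly all reads of the enriched ones are of this family. Whether libraries of both kinds share a lysate is not stated, so 6 independent pairs are not established.

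The same direction held in the 2 knockout groups. In the knockout Ago2 IP the family held 0.149%, 0.463% and 0% of chrM reads and 1.33% to 1.46% of nuclear reads. In the knockout enriched libraries it held 44.3%, 42.2% and 36.5% of chrM and 70.7% to 73.0% of nuclear reads. In the wild-type enriched libraries the shares were 93.2%, 95.1% and 94.6% on chrM and 98.8% to 99.2% on nuclear reads. Within each group of 3 pairs the exact sign-flip p was 0.25, the smallest possible. The 0 among 649 chrM reads of knockout Ago2 IP library 3 allows a share of up to 0.462%.

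The family share on chrM was lower in the knockout in both kinds of library. The means were 7.57% ± 1.81 in wild type and 0.204% ± 0.236 in the knockout for the Ago2 IP, and 94.3% ± 0.984 and 41.0% ± 4.02 for the enriched libraries (SD, n = 3), without overlap and with an exact permutation p of 0.1 each. In each genotype the enriched libraries lay above the Ago2 IP, with the same exact permutation p. Both orders were set by the design, through the deleted locus and the enrichment for this family. These p-values therefore check the libraries and are not results about chrM. In the knockout the remaining chrM chimeras of the enriched libraries were of miR-181a-5p (18, 35 and 6 reads), miR-181b-5p (17, 21 and 6), miR-181c-5p (9, 6 and 4) and miR-181d-5p (14, 11 and 7).

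No miRNA's chrM against nuclear difference was shown to depend on genotype. The interaction of compartment and genotype in edgeR gave 0 calls among 85 miRNAs (0% of those tested), with 1 at an unadjusted p under 0.05, and DESeq2 gave 0 of 72, also 0 at an unadjusted p under 0.05. The lowest p was that of miR-17-5p, at a log2 knockout minus wild type of -1.21 ± 0.54 (SE; edgeR adjusted p = 0.89). In the wild-type Ago2 IP 32 reads of the miR-17 family lay at TrnG and were counted as chrM. In the knockout Ago2 IP 32 lay at the chromosome 1 copy described with TrnG and were counted as nuclear. How far this placement accounts for the miR-17-5p value was not tested. With columns scaled by their sums alone 3 passed as lower in the knockout, miR-17-5p (-1.47), let-7a-5p (-0.58) and miR-142a-3p (-0.32), and so did the same 3 with miRNA gene spans left out. The median over all miRNAs tested was -0.56 in the first of these settings and -0.63 in the second. In both, let-7a-5p lay near the median and miR-142a-3p above it, so their lower values are not read as particular to them. Without wild-type library 1, 1 passed (miR-17-5p).

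Individual mitochondrial RNAs were joined to different seed families in the Ago2 IP. On mt-Rnr1 the let-7 family held 654 of 1006 reads, 65.5% ± 5.44 per library (SD, n = 6), from 57.4% to 73.7%. Of the 654, 455 lay within 10 nt of position 632, which is 562 nt into the gene. miR-142a-3p had 251 reads on mt-Rnr1, of which 15 lay within 10 nt of its most frequent position.

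On ND4 the partner was miR-142a-3p, with 564 of 688 reads, 82.2% ± 3.93 per library (SD, n = 6). Of these 408 lay within 10 nt of position 11456, 88 nt before the end of the gene, and 119 had exactly that position. miR-142a-3p also led on COX1 with 280 of 412 reads, mt-Rnr2 with 328 of 545, ND1 with 279 of 468, ND5 with 53.2% of 340 and CYTB with 156 of 273. On those RNAs its reads were spread, and at most 30.5% lay within 10 nt of the most frequent position.

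miR-155-5p reads were concentrated on ND1 and mt-Rnr2. They numbered 71 on ND1, 14.4% ± 4.10 of its reads per library, and 63 on mt-Rnr2, 11.5% ± 2.74 (SD, n = 6), whereas ND4 had 0 and mt-Rnr1 had 1. The miR-17 family was most frequent on ND5 among mRNAs, with 39 of 340 reads, and at TrnG.

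miR-21a-5p had a single place. Of its 75 Ago2 IP chrM reads, 67 lay between positions 3840 and 3846 on the plus strand, 42 of them at 3840, where the span of TrnQ ends and that of TrnM begins. By library these 67 were 21, 5 and 12 for wild type and 13, 12 and 4 for the knockout. No miR-21a-5p read was seen there in wild-type enriched library 2, and the other enriched libraries had 1 to 4.

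The 8 largest groups of overlapping positions, joined where neighbouring reads lay at most 20 nt apart, held 70.6% of the Ago2 IP chrM reads. They were in mt-Rnr1 (178 to 960, 993 reads), ND4 (11277 to 11493, 581), mt-Rnr2 (1534 to 1959, 387), ND1 (3364 to 3630, 369), COX1 (5703 to 5976, 330), CYTB (14138 to 14345, 140), ND5 (12800 to 13031, 139) and across the end of TrnV (1087 to 1158, 103). miR-142a-3p was the most frequent single miRNA in each, from 24.9% of the reads in mt-Rnr1 to 86.7% in ND4. These places were chosen by their read number, so no test was made on them.

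**Figure D4:**
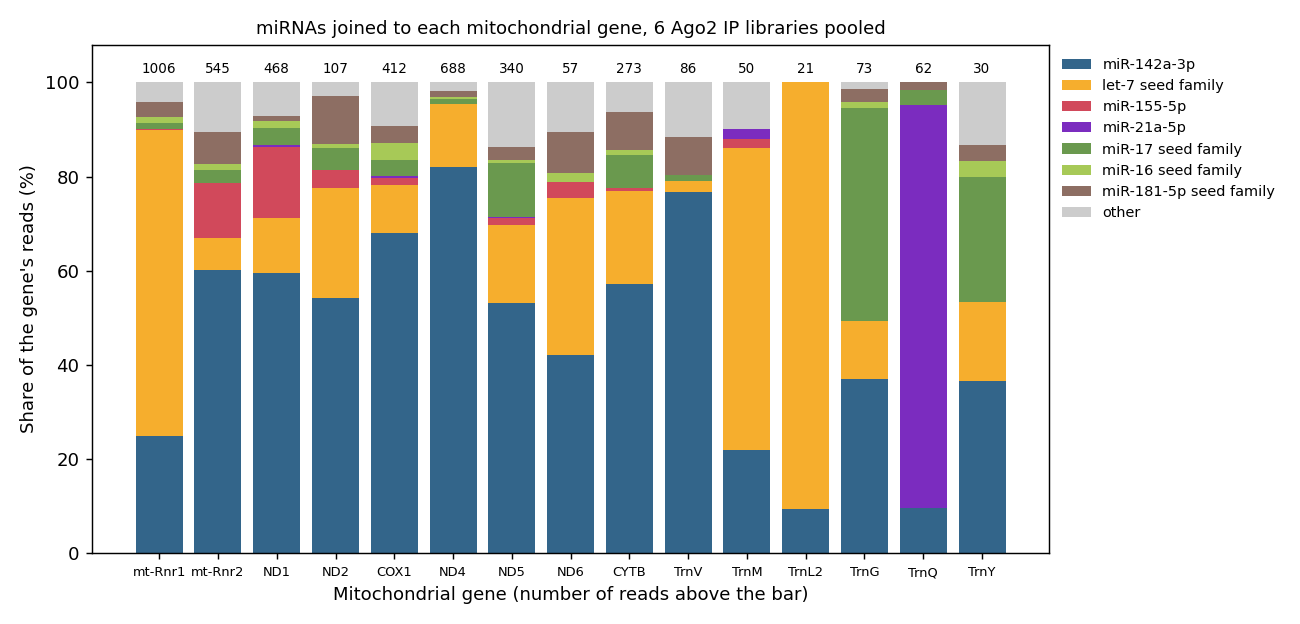
Share of each gene's reads held by each seed family (stacked to 100%), with the 6 Ago2 IP libraries pooled and the number of reads above each bar. The let-7 family leads on mt-Rnr1, TrnM and TrnL2, miR-142a-3p on the mRNAs, mt-Rnr2 and TrnV, miR-21a-5p at TrnQ, and the miR-17 family at TrnG.

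In the miR-181 enriched wild type the pattern over genes was another one. The 2191 miR-181-5p chimeras on chrM fell on mt-Rnr1 (809 reads), mt-Rnr2 (422), COX1 (259), CYTB (149), ND5 (142) and ND2 (118), while ND1 held 77 and ND4 only 49. Ribosomal RNA made up 56.7%, 56.0% and 54.7% of chrM reads there, against 35.6% to 38.9% in the wild-type Ago2 IP. Positions were dispersed, and of the 809 mt-Rnr1 reads 205 lay within 10 nt of the most frequent position, 633. That position is next to the let-7 peak, as 455 of 654 let-7 reads in the Ago2 IP lay within 10 nt of 632.

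Between genotypes, 3 of the 11 mitochondrial genes that passed the count filter changed in the Ago2 IP, against 9.74% of all 1571 features tested (153 called). COX1 rose from 756 ± 7.12 to 1292 ± 290.1 RPM (SD, n = 3; log2 0.77 ± 0.17, SE; edgeR adjusted p = 0.0019). ND4 rose from 1359 ± 178 to 1994 ± 79.4 (log2 0.50 ± 0.14; edgeR adjusted p = 0.013). TrnG fell, but it passed the count filter through the wild-type libraries alone, where it was high. The count of 3 therefore includes a gene whose direction is not independent of the filter. With the reads of the chromosome 1 copy, described below, added to TrnG, 2 of 11 were called (COX1 and ND4). Of all features 3.25% were called higher and 6.49% lower.

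The other 8 tested genes did not pass. ND1 (log2 0.48, edgeR adjusted p = 0.051) and ND5 (0.53, 0.063) came closest, then mt-Rnr2 (0.33, 0.22), mt-Rnr1 (0.24, 0.22), CYTB (0.32, 0.44), TrnV (0.39, 0.54), TrnQ (-0.24, 0.81) and ND2 (0.15, 0.82). The median of the 11 was 0.33 and that of all features 0.02. Without knockout library 1, 6 genes were called, with ND1, ND5 and ND6 higher as well, and without wild-type library 1 ND1 passed too. Both increases lost their call under several alternatives. Without knockout library 2, COX1 stood at log2 0.52 (edgeR adjusted p = 0.097) and ND4 at 0.44 (0.093), and ND4 also missed the threshold without wild-type library 2 (0.43, 0.091) or 3 (0.42, 0.055). ND4 did not pass in DESeq2 either (0.51, adjusted p = 0.12). With non-miR-181 chimeras only, COX1 stood at 0.40 (0.24) and ND4 at 0.04 (0.96), and of 11 mitochondrial genes 0 were called higher and 1 (TrnG) lower, against 2.52% of 1349 features called (1.63% lower). There too TrnG passed the count filter through the wild-type libraries alone. With repeats counted once ND4 was at 0.25 (0.45), while ND1 (0.50, edgeR adjusted p = 0.036) and ND5 (0.62, 0.019) passed together with COX1, 3 of 8 genes tested. Both also passed with library sizes alone (ND1 0.52, edgeR adjusted p = 0.030; ND5 0.57, 0.040).

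TrnG, the tRNA of glycine, showed the largest genotype difference of all mitochondrial genes tested. It passed the count filter through the wild-type libraries alone, where it was high, so its rank and p-value are not independent of the filter. The wild-type Ago2 IP libraries had 27, 26 and 18 reads there and the knockout libraries 1, 1 and 0. The levels were 338 ± 95.9 and 10.4 ± 9.06 RPM (SD, n = 3), a log2 difference of -4.63 ± 0.59 (SE; edgeR adjusted p = 7.1e-08). The pooled reads, 71 against 2, give a ratio of 27.8 with an exact 95% interval of 7.41 to 234 for counting error. The wild-type enriched libraries had 3, 5 and 4 reads and the knockout enriched ones 0, 0 and 0. With repeats counted once TrnG did not reach the count filter.

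A nuclear locus showed the mirror image. Chromosome 1 carries a copy of mitochondrial DNA, in which RefSeq places the pseudogenes Gm10222 (24612404 to 24612700), with the 297 nt of ND4L, and Gm10925 (24613971 to 24614651), with the 681 nt of ATP6. Between both lies a group of minus-strand reads at chr1 24612993 to 24613071. It had 0, 0 and 1 wild-type and 29, 19 and 27 knockout Ago2 IP reads, and 0, 0 and 0 wild-type and 3, 0 and 1 knockout enriched reads. In the Ago2 IP the genotypes did not overlap at either locus, and their orders were opposite.

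The sum of both loci did not separate the genotypes. It was 27, 26 and 19 Ago2 IP reads for wild type and 30, 20 and 27 for the knockout, or 346 ± 105 and 436 ± 122 RPM (SD, n = 3). With the chromosome 1 reads added to TrnG in the edgeR fit, the log2 difference was 0.42 and did not pass (edgeR adjusted p = 0.37). The miRNAs were alike at both. In the wild-type Ago2 IP 32 of the 71 TrnG reads (45.1%) were of the miR-17 family and 27 of miR-142a-3p. In the knockout Ago2 IP 32 of the 75 chromosome 1 reads (42.7%) were of the miR-17 family and 21 of miR-142a-3p.

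By the order of the copied genes, the chromosome 1 reads correspond to mitochondrial positions 9506 to 9584, downstream of the TrnG reads at 9452 to 9458. The TrnG reads are on the plus strand and the chromosome 1 reads on the minus strand. Which end of a read its position marks on each strand is not given, so this offset does not show that the RNAs came from different places. Both sets lie in the part of the mitochondrial genome that the nuclear copy holds and on the strand that matches. Whether reads of 1 RNA were placed at one locus in wild type and at the other in the knockout was not tested, since no genome sequence was used here.

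**Figure D5:**
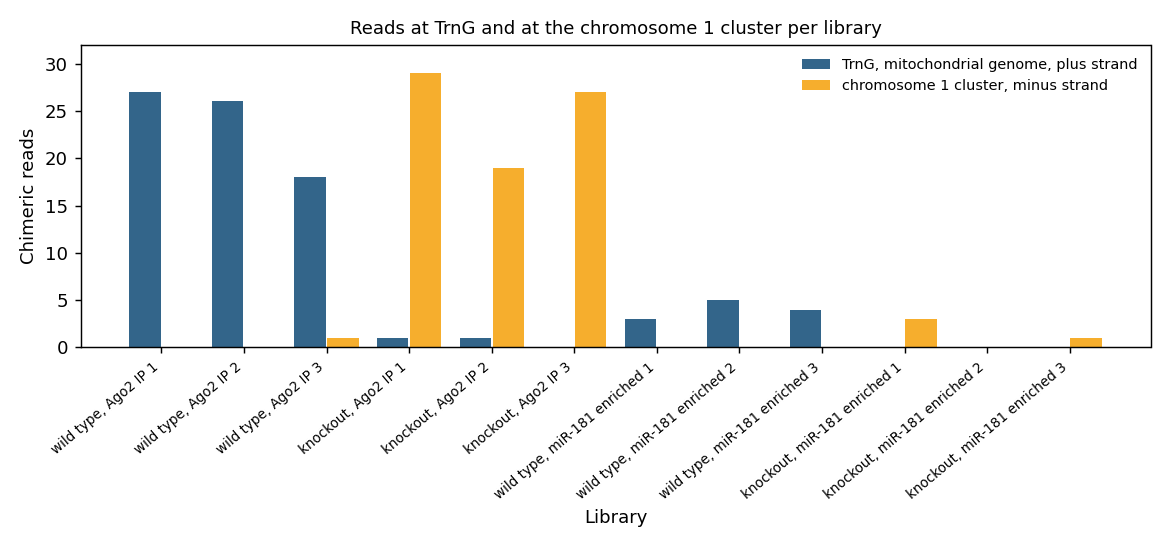
Number of chimeric reads at TrnG on the mitochondrial genome and at the minus-strand cluster on chromosome 1 in each of the 12 libraries. In the Ago2 IP the wild-type libraries have 18 to 27 TrnG reads and at most 1 at chromosome 1, and the knockout libraries have at most 1 TrnG read and 19 to 29 at chromosome 1.

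In the enriched libraries 5 of the 8 mitochondrial genes tested rose in the knockout and 0 fell, against 4.28% of 2081 features called (1.92% higher, 2.35% lower). The level of all 8 was higher in every knockout library than in every wild-type one. How many of all features separated in this way was not counted, so the separation is not read as particular to these genes. ND1 rose from 116 ± 19.6 to 879 ± 253 RPM (SD, n = 3; log2 2.55 ± 0.37, SE; edgeR adjusted p = 1.4e-05), with 31, 35 and 20 reads for wild type and 9, 14 and 8 for the knockout at far lower depth. ND4 rose from 89.8 ± 18.1 to 534 ± 225 (log2 2.404 ± 0.44; edgeR adjusted p = 0.00045). However, ND4 passed the count filter through the knockout libraries, where it was higher, so its direction is not independent of the filter. The counts and the median of the 8 include it. ND5 (log2 2.10), CYTB (1.47) and mt-Rnr1 (1.19) passed as well. mt-Rnr2 at 0.73, ND2 at 1.112 and COX1 at 0.70 did not (edgeR adjusted p = 0.13, 0.17 and 0.25). The median of the 8 was 1.33 and that of all features -0.10.

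CYTB and mt-Rnr1 lost their call in some settings. Without knockout enriched library 1 they stood at 0.77 and 0.84 and were not called (edgeR adjusted p = 0.50 and 0.056). CYTB also missed the threshold without knockout library 2 (1.42, 0.056) or 3 (1.27, 0.067). Among non-miR-181 chimeras only 8 features passed the count filter, 1 of them mitochondrial, and mt-Rnr1 then stood at log2 -0.11 (edgeR adjusted p = 0.90; 25% of the 8 features called, all lower). Without the count filter mt-Rnr1 stood at 0.54 and CYTB at 0.83, neither called. Scaling by library sizes alone moved the median of all features by 0.34, and mt-Rnr2 was then called too (1.07). It was also called without wild-type enriched library 2 (edgeR adjusted p = 0.0084).

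Against the Ago2 IP, 11 of the 13 mitochondrial genes tested were lower in the miR-181 enriched libraries of wild type and 0 higher, where 15.9% of 3050 features were called lower and 19.6% higher (35.4% in all). ND4, the lowest in p, fell from 1359 ± 178 to 89.8 ± 18.1 RPM (SD, n = 3; log2 -3.55 ± 0.19, SE; edgeR adjusted p = 9.5e-25). TrnG (log2 -3.84), TrnQ (-3.44), ND1 (-2.66), TrnM (-1.82), TrnV (-1.65), ND5 (-1.42) and CYTB (-1.15) fell as well. COX1 (-0.68), mt-Rnr2 (-0.62) and mt-Rnr1 (-0.58) fell least. ND2 at -0.23 and ND6 at -0.95 did not pass (edgeR adjusted p = 0.51 and 0.068). The median of the 13 was -1.42 and that of all features -0.02. TrnG, TrnQ, TrnM, TrnV and ND6 were low in the enriched libraries, with means of 16.8, 10.4, 19.2, 44.4 and 39.5 RPM. They passed the count filter through the Ago2 IP, where they were higher, so their direction is not independent of the filter. The counts and the median of the 13 include them.

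The miR-181-5p family held 118 of the 120 ND2 reads of these enriched libraries and 49 of the 67 ND4 reads. Without wild-type Ago2 IP library 2, mt-Rnr2 was at -0.43 and not called (edgeR adjusted p = 0.11), and without wild-type enriched library 2 TrnM was at -1.42 and not called (0.066). Among non-miR-181 chimeras 0 of 7 mitochondrial genes fell and mt-Rnr1 rose (log2 1.06, edgeR adjusted p = 0.020), with 4.88% of 246 features called (4.07% higher). The others stood at 0.38 for mt-Rnr2, 0.28 for COX1 and 0.16 for ND4, above 0, and at -0.31 for ND1, -0.36 for ND5 and -0.59 for CYTB. Scaling by library sizes alone moved the median of all features by -0.45. All 13 genes were then called lower, where 1171 of the 3050 features were called lower and 49.7% in all. Without the count filter mt-Rnr1, mt-Rnr2 and COX1 stood at -0.38, -0.43 and -0.49 and were not called. This comparison shares the wild-type Ago2 IP libraries with the genotype comparison of the Ago2 IP, and the wild-type enriched libraries with that of the enriched libraries.

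In the knockout, 1 of the 8 mitochondrial genes tested differed between enriched and Ago2 IP libraries, against 21.3% of 797 features (15.8% higher, 5.52% lower). ND4 fell from 1994 ± 79.4 to 534 ± 225 RPM (SD, n = 3; log2 -1.63 ± 0.28, SE; edgeR adjusted p = 7.3e-07), and it no longer passed with repeats counted once (-0.54, 0.30). In that setting mt-Rnr1 was the gene called, as higher (0.58, edgeR adjusted p = 0.0069). COX1 (-0.72, edgeR adjusted p = 0.070), mt-Rnr1 (0.40, 0.082) and ND1 (-0.56, 0.15) did not pass, nor did mt-Rnr2, ND2, ND5 and CYTB. ND1 and COX1 were called lower without knockout Ago2 IP library 1 or 3 (ND1 at -0.83 and -0.69), and with library sizes alone, which moved the median of all features by -0.31. Among non-miR-181 chimeras mt-Rnr1 rose (log2 1.16, edgeR adjusted p = 5.2e-07; 3.02% of 562 features called, 2.14% higher) and ND4 stood at -0.56 (0.54).

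Many mitochondrial reads repeated another read of the same library in position, strand and miRNA. In the wild-type Ago2 IP these repeats were 28.3%, 18.02% and 19.3% of chrM reads against 4.50%, 3.28% and 3.64% of nuclear reads. In the knockout they were 23.9%, 27.2% and 21.3% against 3.22%, 3.23% and 3.01%. The difference was 19.5 percentage points (exact sign-flip p = 0.031 over 6 pairs, two-sided, the smallest possible). In the wild-type enriched libraries the order was the opposite, with 23.4%, 23.4% and 16.9% on chrM and 34.1%, 28.9% and 28.0% on nuclear reads. Per the submitters' processing notes a UMI tool was used, but the files hold no molecular identifiers, so repeats from separate molecules at a narrow site and from copies of 1 molecule cannot be told apart.

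The nuclear genes of mitochondrial function held few chimeras. The 74 nuclear subunits of the respiratory chain and ATP synthase had 799 reads in the 6 Ago2 IP libraries, of which Ndufs4, Ndufv2 and Sdha had 93, 47 and 46, and 66 of the 74 had at least 1. The 21 factors of mitochondrial RNA synthesis, processing and stability had 223 reads, led by Lrpprc, Grsf1 and Pnpt1 with 33, 25 and 22. Of both lists only 1 subunit and 0 RNA factors passed the count filter between genotypes in the Ago2 IP, and none was called. In the enriched libraries 4 subunits and 2 RNA factors were tested between genotypes and none was called.

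The enriched libraries held more reads at some of these genes than the Ago2 IP in wild type. Of 8 subunits tested 4 were called higher and 0 lower, against 35.4% of 3050 features called (19.6% higher, 15.9% lower), with a list median of log2 0.61 beside -0.02 for all features. They were Uqcrh of complex III (log2 2.90 ± 0.34), Cox5a of cytochrome c oxidase (1.64 ± 0.50), Ndufs1 of complex I (1.61 ± 0.29) and Sdha of complex II (0.75 ± 0.30; SE, edgeR adjusted p = 2.1e-10 to 0.047). Of 3 RNA factors tested 2 were called higher, against the same 19.6%, namely Fastkd2, which binds mt-Rnr2 and is needed for the large ribosome subunit, at 2.68 ± 0.30 (edgeR adjusted p = 3.7e-11) and Grsf1, an RNA-granule protein, at 1.04 ± 0.36 (0.019). Fastkd2 was also called higher in the knockout, at 4.79 ± 0.56 (edgeR adjusted p = 1.2e-12), the only one of these genes tested there, where 15.8% of 797 features were called higher. In that comparison Fastkd2 passed the count filter through the enriched libraries, where it was higher. Its direction, and its being the only one tested, are therefore not independent of the filter.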

How the data were processed

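Per the labels, the authors deposited for each of 12 libraries 2 lists of chimeric reads, 1 per strand; the deposited values are counts, each line being 1 read with a position 1 nt wide and its miRNA. Per the submitters' processing notes, Bowtie2 2.4.5, STAR 2.7.10, UMI-tools 1.1.1, SAMtools 1.11 and bedtools 2.30.0 were used with mm10 and GRCm38.p6; no parameters were named there. The depth per library was 6832 to 293149 reads. Reads were named by RefSeq gene spans (93.6% named), strands of mitochondrial genes being background knowledge. Gene and miRNA counts were tested with edgeR 4.0.16 in R 4.3.3 (TMM, filterByExpr with a minimum count of 10, quasi-likelihood, adjusted p at most 0.05), with DESeq2 1.42.0 as an alternative; the fits were tested on simulated data. Shares were compared by exact permutation or sign-flip tests over libraries in Python 3.11.15. SEs are the log2 difference over the root of F.

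The members, gene lists and tests were chosen with earlier results of these data known. Named were the 8 mitochondrial genes with most Ago2 IP reads, each called gene, ND6, the 10 miRNAs with most chrM reads, the 5 called miRNAs of lowest p per direction, the miR-181-5p family, the 8 largest clusters and list members with most reads; called list members, TrnM, TrnL2, TrnY and the other called miRNAs were chosen after their values were seen. Same-numbered libraries were not taken as pairs, since their deviations correlated at -0.11 to 0.11. Repeats counted once, non-miR-181 chimeras, other scalings and filters and left-out libraries were alternatives; the chromosome 1 reads counted as mitochondrial were added after seeing the data.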

Additional observations from a re-analysis of the deposited data

Results flagged for a closer look

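The chromosome 1 group of minus-strand reads, which the comparisons over mitochondrial genes left out except in the alternative that adds it to TrnG, held 75 reads in the knockout Ago2 IP libraries and 1 in the wild-type ones, the control level. The repeated-read difference between chrM and nuclear reads had opposite signs in different groups of libraries. It averaged 18.1 percentage points for wild type and 21.0 for the knockout in the Ago2 IP, positive in every library, and -9.10 in the wild-type enriched libraries, negative in every library; in the knockout enriched libraries it was mixed, from -4.29 to 1.93. The difference between groups was not tested. Groups of 3 libraries were too small for a check of single outlying libraries.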

How the results depend on the processing

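Counts of called mitochondrial genes moved with some settings. Between genotypes in the Ago2 IP, 3 were called; library sizes alone gave 5 (4 higher), non-miR-181 chimeras 1, and leaving out 1 library 1 to 6. In the enriched libraries 5 were called, with 3 without the count filter, 0 for non-miR-181 chimeras and 3 to 6 with a library left out. For enriched against Ago2 IP in the knockout 1 was called, with 3 for library sizes alone, 3 without the filter and 1 to 3 with a library left out; in wild type 11 were called, with 1, in the opposite direction, for non-miR-181 chimeras. In the replicate block fit, in which same-numbered libraries were paired, the knockout comparison of enriched and Ago2 IP libraries gave 3 calls (ND4 and COX1 lower, mt-Rnr1 higher), and the other comparisons gave 3, 5 and 12 where the fit without it gave 3, 5 and 11. The interaction of miRNA, compartment and genotype gave 0 calls, 3 with column sums alone, 3 with miRNA spans left out and 0 to 1 with a library left out.

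Directions turned as follows, and the cause was not tested. With non-miR-181 chimeras the chrM share differed by -0.00106 percentage points between genotypes in the Ago2 IP, and enriched minus Ago2 IP was 0.526 in wild type and 0.798 in the knockout; with repeats counted once the last was 0.0224. For the same chimeras mt-Rnr1 stood at -0.11 between genotypes after enrichment, and at 1.06 against the Ago2 IP in wild type, with mt-Rnr2 at 0.38, COX1 at 0.28 and ND4 at 0.16. let-7g-5p stood at -0.063 without the filter and -0.033 with repeats counted once, and TrnG at 0.42 with the chromosome 1 reads added. The minus-strand difference ran from -0.0327 to 0.469 with a library left out. The miR-181-5p difference between chrM and nuclear reads ran from -16.3 to -11.9 and the repeat difference from 18.6 to 20.5, where 5 pairs allow no exact sign-flip p under 0.0625; over all 12 libraries the repeat difference was 7.33 (permutation p = 0.089, by sign flips). Depth limits the knockout enriched libraries the most, with 63 to 173 chrM reads each, and the genes with under 10 reads in all.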
